A study of Mus musculus with 4 samples.

Results

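A pair of mouse neural stem cell lines mutant for the same gene, Dll1, was compared with each other: Dll1-5 against Dll1-3. All 4 of the study's 4 arrays entered, 2 per line. Each array held labelled RNA of a mutant line in one dye and of wild-type neurospheres in the other, with mutant RNA in Cy5 on the replicate 1 arrays and in Cy3 on the replicate 2 arrays. The quantity described is the mean log2 ratio of mutant over wild type on the 2 Dll1-5 arrays minus that on the 2 Dll1-3 arrays, called the line difference here; 1 on this scale is 2-fold. A positive value means a higher ratio in Dll1-5.

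All groups had a mixed background, 129/Sv mice crossed with C57BL/6, and all cells were grown from neural stem cells as neurospheres in serum-free medium with EGF. The growth protocol names wild-type lines for Dll1-3 and for Dll1-5 separately. The genotypes are labelled wild type, Dll1-3 mutant and Dll1-5 mutant. How Dll1 is altered in each mutant, how far the lines are clonal and the age of the mice are not given in the labels used here. RNA was pooled from 3 preparations per replicate. The submitters' design text speaks of 2 biological replicates, each dye-swapped, but there are only 2 arrays per line. The 2 arrays of a line were therefore taken to repeat 1 pool with the dyes exchanged. A line is then 1 replicate, and a difference between lines has no test. The error printed after ± is the distance of the 2 dye-matched differences (replicate 1 with replicate 1, replicate 2 with replicate 2) from their mean, and on this reading it is technical.

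Dll1 (Delta-like 1) is a membrane ligand that activates Notch receptors on neighbouring cells. An activated receptor is cleaved, its intracellular part enters the nucleus and joins the DNA-binding protein RBPJ, and genes such as the Hes and Hey repressors are switched on. In neural progenitors these repressors hold back proneural genes and neuronal differentiation. Neurospheres are free-floating colonies in which neural stem cells divide alongside progenitors that have begun to form glia and neurons. Serial growth in EGF keeps them dividing.

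Of 22999 genes measured, 1017 (4.42%) had a line difference of at least 2-fold with both arrays of one line beyond both arrays of the other, and are named called genes below. In Dll1-5, 634 of them (2.76% of all genes) were higher and 383 (1.67%) were lower. The median line difference of all genes was 0.01, and 90% of genes lay between -0.67 and 0.74. The median error was 0.05 over all genes and over called genes alike. At least 4-fold were 71 genes higher and 39 lower, and at least 8-fold 12 higher and 11 lower. If each array is instead taken as a separate sample, limma's lmFit and eBayes with Benjamini-Hochberg adjustment passed 4202 genes (18.3%), 2217 higher and 1985 lower, which may count repeats of the same pools as replicates. With the replicate number, which is the dye orientation, as a block it passed 9162. Signals well above background were found for 80.0% to 82.1% of probes per channel. Precision is limited by how few arrays there are.

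**Figure D1:**
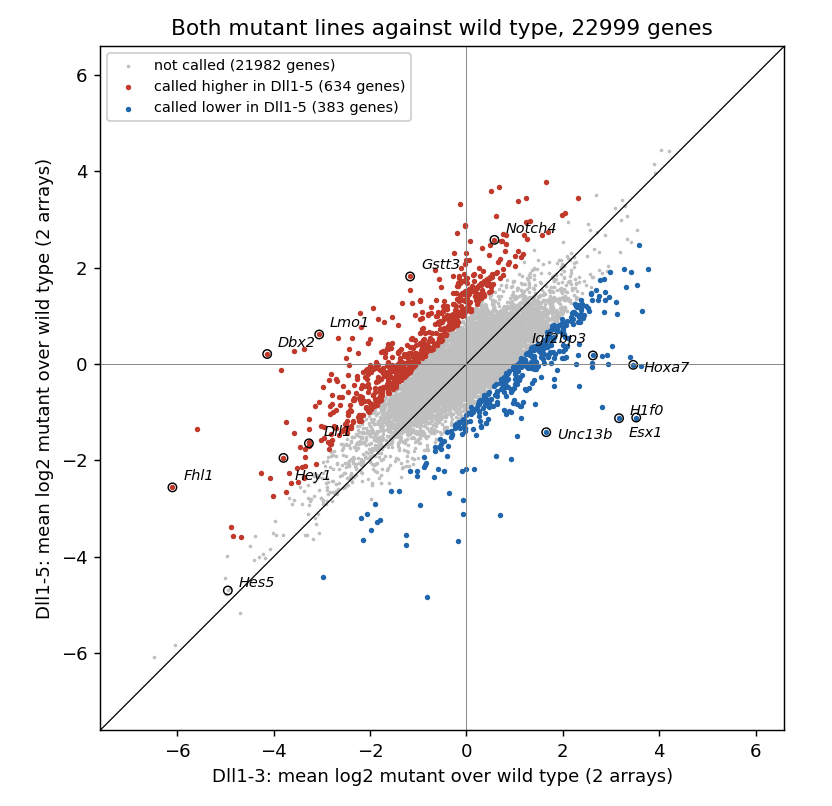
Mean log2 mutant over wild type of each gene in Dll1-3 (x axis) and Dll1-5 (y axis), 2 arrays per line, for 22999 genes; red points are the 634 called higher in Dll1-5, blue points the 383 called lower, and the diagonal marks equal ratios. Dbx2 and Lmo1 lie far left near the zero line of the y axis, Esx1 and Hoxa7 far right, and Hes5 lies low on the diagonal.

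The called genes were set against wild type line by line. Among the 634 higher genes, 236 were at least 2-fold below wild type in Dll1-3 and within 2-fold of it in Dll1-5, and 154 were at least 2-fold above wild type in Dll1-5 and within 2-fold of it in Dll1-3. Both lines were 2-fold below wild type for 58 and 2-fold above for 15. Among the 383 lower genes, 157 were at least 2-fold above wild type in Dll1-3 alone and 55 at least 2-fold below in Dll1-5 alone. Both lines were 2-fold above for 34 and 2-fold below for 13. For 5 higher and 1 lower gene both arrays of one line were 2-fold above wild type and both of the other 2-fold below. Every class asked the same of both arrays of a line, and 166 higher and 123 lower genes fell in none of them. The commonest pattern in both directions was therefore a ratio of Dll1-3 far from wild type beside a ratio of Dll1-5 within 2-fold of it.

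Because the line difference is a difference of ratios, the mutant channels and the wild-type channels were also compared separately within each dye, as log2 signals after loess and Aquantile normalisation. Mutant RNA differed between the lines by at least 2-fold in both dyes for 617 genes higher in Dll1-5 (2.68%) and 413 lower (1.8%). Without Aquantile that split was 481 higher and 598 lower, so the balance of directions in the mutant channel depends on the scaling between arrays. Of the genes called by ratio, 576 of the higher and 341 of the lower also met the mutant RNA rule. Wild-type RNA passed the same rule for 1 gene higher on the Dll1-5 arrays (0.00435%), Fbln2, and 2 lower (0.0087%), Hoxa7 and Mical1, named after their values were seen. It was within 1.5-fold for 99.5% of genes, against 84.2% for mutant RNA, and the SD of the difference over genes was 0.14 against 0.50.

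**Figure D2:**
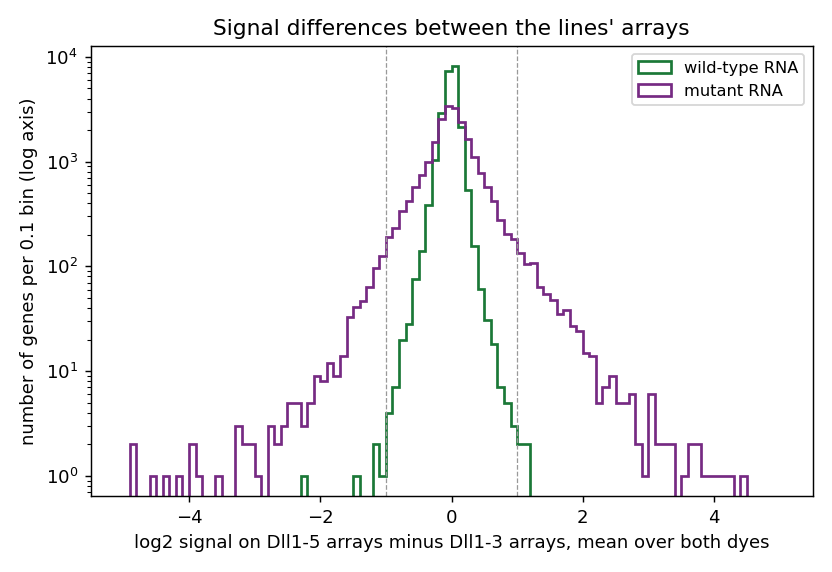
Number of genes (log axis, bins of 0.1) by difference in log2 signal, Dll1-5 arrays minus Dll1-3 arrays, mean over both dyes, for mutant RNA (purple) and wild-type RNA (green); dashed lines mark 2-fold. The wild-type curve is narrow (SD 0.14) and the mutant curve broad (SD 0.50).

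For genes with large mutant differences the wild-type channel tended to move the same way by a small amount. Among 145 genes whose mutant RNA differed by at least 4-fold, the wild-type difference had the same sign for 137, with a median of 0.13 in that direction. Its part in the result was not tested. Ratios of such genes understate the mutant difference: for Hoxa7 the wild-type channel was lower by 2.26 and for Mical1 by 1.13 on the Dll1-5 arrays.

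The Notch pathway was read first, beginning with the ligands. Dll1 was lower than wild type in both lines, and less so in Dll1-5. The ratios were -3.31 and -3.22 for Dll1-3 and -1.65 and -1.64 for Dll1-5, a line difference of 1.62 ± 0.04. The pairs do not overlap, and mutant signal stood above background on all 4 arrays. In the mutant channels the log2 Dll1 signal was 9.31 and 9.49 in Dll1-3 against 11.09 and 11.11 in Dll1-5, while wild-type RNA lay between 12.62 and 12.75. Its probe lies on chromosome 17 from 13371312 to 13371371, in the array files' coordinates, whose build is not named there. Since the labels do not say how the gene is altered, this probe does not check the mutation. Dll3, a divergent Delta-family member that acts mainly inside the cell, was at -2.93 and -2.72 in Dll1-3 and at -1.71 and -1.61 in Dll1-5, a line difference of 1.16 ± 0.05. Dll4, another Notch ligand, was at -0.50 and -0.32 in Dll1-3 and at 0.39 and 0.59 in Dll1-5, and its line difference of 0.90 missed the 2-fold mark. Jag1 and Jag2, ligands of the Jagged family, differed by -0.06 and 0.26. Of 8 ligands measured, 2 were called higher and 0 lower, against 2.76% and 1.67% of all genes, with a median line difference of 0.32. Over the alternative settings that median ran from 0.21 to 0.59. With median centring in place of loess, 0 of the 8 were called: Dll1 and Dll3 kept line differences of 1.48 and 1.02, but their arrays overlapped between the lines.

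Among the receptors, Notch4, which is best known from blood vessels, stood apart. It stood at 0.57 and 0.59 in Dll1-3 and at 2.63 and 2.52 in Dll1-5, a line difference of 1.99 ± 0.06. In mutant RNA the log2 signal was 8.02 and 7.56 in Dll1-3 and 10.13 and 10.03 in Dll1-5, against 6.97 to 7.51 in wild-type RNA. Both Dll1-5 arrays were high and did not overlap with the other pair. The probe lies on chromosome 17 from 32287055 to 32287114. Notch1, the main receptor of neural progenitors, differed by -0.33 ± 0.11, Notch2 by -0.15 ± 0.02, with other probes from -0.37 to 0.23, and Notch3 by 0.12 ± 0.06. Of 24 endothelial, mural and fibroblast markers measured, 0 were called in either direction, with a median of 0.03. Over all genes 4.42% were called, so 0 calls in so short a list is not unusual. The summed mutant signal of these markers was 10700 and 11800 in Dll1-3 and 10900 and 12600 in Dll1-5. Of the 24 markers, 21 were above background in mutant RNA on all 4 arrays. The exceptions were Cdh5, the endothelial cadherin, not above background in mutant RNA on the Dll1-5 arrays, and Pdgfrb and Postn.

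The Hes and Hey repressors did not move together. Hes5, the repressor most tied to Notch activity in neural progenitors, was at -4.89 and -5.01 in Dll1-3 and at -4.59 and -4.81 in Dll1-5, so the pairs lay close together and its line difference was 0.25 ± 0.05. Hey1 was at -3.93 and -3.66 in Dll1-3 and at -1.97 and -1.93 in Dll1-5, a line difference of 1.85 ± 0.11 with no overlap. Hes1, a more widely expressed repressor, differed by -0.09 ± 0.09, and Hes6, which opposes Hes1, by 0.53 ± 0.05. Heyl, Hes2, Hes3 and Hes7 differed by 0.18, -0.19, 0.04 and -0.07, and Hey2 was not above background in mutant RNA of either line. Of 9 such genes 1 was called higher and 0 lower, against 2.76% and 1.67% of all genes. Hey1 and Hes5, both read as targets of the pathway, thus differed between lines by unlike amounts.

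Of 27 modulators and transducers of the pathway, 1 was called higher and 1 lower, against 2.76% and 1.67% of all genes. The median was 0.03, and its sign changed with the setting. Mib1, the ubiquitin ligase that primes Delta ligands for signalling, was at -1.87 on both Dll1-3 arrays and at -0.31 and -0.43 in Dll1-5, dye-matched differences of 1.56 and 1.44. Its other probes gave 0.40 and 0.79. Dtx1, a cytoplasmic modulator of Notch, was at -0.69 and -0.47 in Dll1-3 and at -2.29 and -2.07 in Dll1-5, so it was the Dll1-5 pair that lay low, with a line difference of -1.60. The proneural list of 24 genes had 1 called higher and 1 lower, with a median of 0.05. Neurog2, a proneural factor of dorsal progenitors, differed by 0.05. Neurod1 met the rule with a line difference of 1.92, but its error was 1.57: it was at -3.06 on 1 Dll1-3 array and at -0.31 on the other. Without Dll1-3 replicate 1 the line difference was 0.55.

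**Figure D3:**
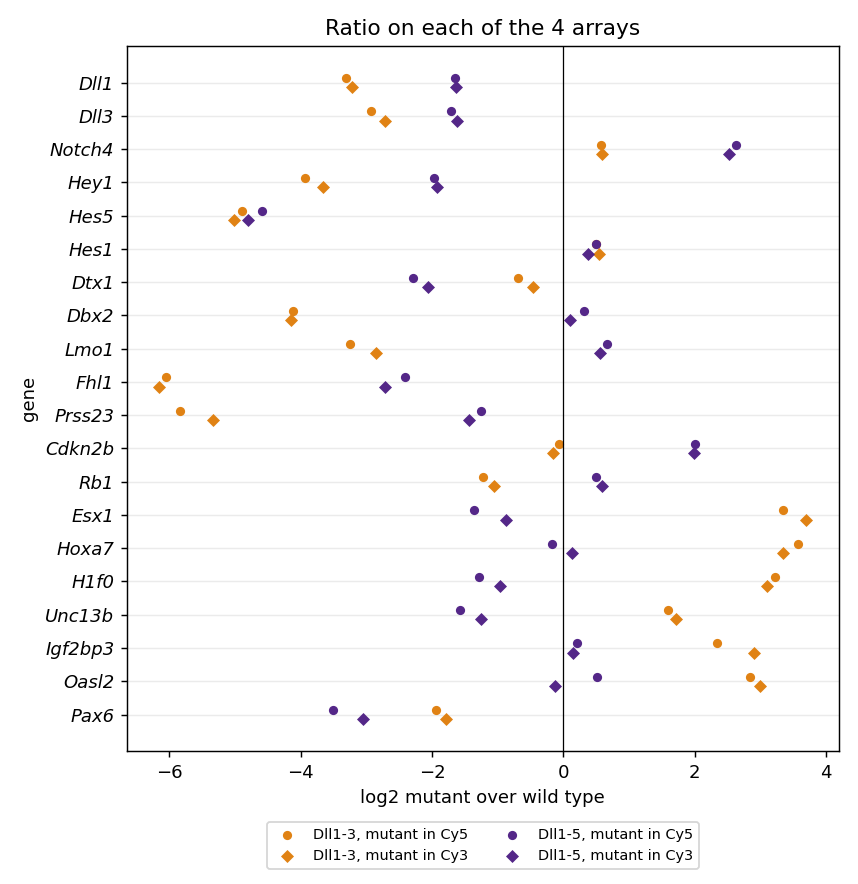
Log2 mutant over wild type on each array for 20 genes; orange is Dll1-3 and purple Dll1-5, circles have mutant RNA in Cy5 (replicate 1) and diamonds in Cy3 (replicate 2). The dye-swapped arrays of a line lie close together, Hes5 and Hes1 show both lines close together, and the genes from Dbx2 to Pax6 show the lines apart.

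Promoter sequences were set beside these results for 4 genes, to show what the region around the start holds for a pathway target that was not called (Hes5) and for genes with large line differences (Dbx2, Notch4 and Esx1). They are RefSeq sequences of build GRCm38.p6, from 250 bases before to 50 after the start, printed from 5' to 3' on the gene's strand. Capitals mark TGGGAA, the core that RBPJ binds, and CACGTG, an E-box that Hes and Hey proteins can bind, searched on both strands (TGGGAA read on the other strand is TTCCCA, and CACGTG reads the same on both).
Hes5, chr4:154960673-154960972, plus strand: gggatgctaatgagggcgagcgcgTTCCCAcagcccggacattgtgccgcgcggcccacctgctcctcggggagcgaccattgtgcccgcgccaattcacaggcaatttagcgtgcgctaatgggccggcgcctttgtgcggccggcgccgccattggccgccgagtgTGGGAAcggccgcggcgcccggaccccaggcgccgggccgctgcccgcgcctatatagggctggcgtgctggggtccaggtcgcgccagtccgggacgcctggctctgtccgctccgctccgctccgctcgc
Dbx2, chr15:95654722-95655021, minus strand: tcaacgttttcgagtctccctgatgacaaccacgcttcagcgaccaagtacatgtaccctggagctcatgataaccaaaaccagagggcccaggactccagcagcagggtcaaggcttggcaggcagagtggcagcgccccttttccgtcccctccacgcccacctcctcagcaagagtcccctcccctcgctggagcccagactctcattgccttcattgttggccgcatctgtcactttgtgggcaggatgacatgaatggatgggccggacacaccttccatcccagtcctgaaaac
Notch4, chr17:34564045-34564344, plus strand: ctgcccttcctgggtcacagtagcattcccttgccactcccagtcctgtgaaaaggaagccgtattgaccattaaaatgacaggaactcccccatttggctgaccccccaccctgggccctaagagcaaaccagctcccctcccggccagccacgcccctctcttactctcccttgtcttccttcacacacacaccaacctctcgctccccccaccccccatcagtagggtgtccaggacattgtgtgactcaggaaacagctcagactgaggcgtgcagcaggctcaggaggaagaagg
Esx1, chrX:137120277-137120576, minus strand: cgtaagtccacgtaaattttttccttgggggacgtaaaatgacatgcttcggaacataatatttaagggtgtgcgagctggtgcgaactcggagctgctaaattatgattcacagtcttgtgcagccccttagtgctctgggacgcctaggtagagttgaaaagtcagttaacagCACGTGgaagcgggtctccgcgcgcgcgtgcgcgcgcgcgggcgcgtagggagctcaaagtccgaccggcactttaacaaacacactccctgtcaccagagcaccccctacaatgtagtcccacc
Hes5 held 2 matches to TGGGAA, 1 on each strand, and Esx1 1 match to CACGTG. Neither hexamer was in the Dbx2 or the Notch4 window. Among windows not printed, Lmo1, also with a large line difference, held 1 match to TGGGAA in each of its listed windows. Those of Hoxa7, Dll1 and Dll3 held neither hexamer. Of all 32851 promoters in the table, 25.6% held TGGGAA and 7.15% held CACGTG on either strand. For the promoters of genes called higher in Dll1-5 (490 promoters) the shares were 22.4% and 12.7%, and for those called lower (361 promoters) 23.5% and 9.14%. The sets are unlike: the shares over all promoters include genes not measured here, whereas called genes come only from measured ones. No share over measured genes alone was taken. A gene can have several promoters, and promoters were found for 666 of the 1017 called genes. A match is a description of letters and not a binding site.

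Developmental regulators gave some of the largest differences, each in few members of its family. Dbx2, a homeobox factor of progenitors in the intermediate spinal cord, had the highest line difference of all conventionally named genes. It stood at -4.11 and -4.15 in Dll1-3 and at 0.31 and 0.10 in Dll1-5, a line difference of 4.34 ± 0.08. In mutant RNA the log2 signal was 7.47 and 7.46 in Dll1-3 against 11.99 and 11.77 in Dll1-5, and wild-type RNA lay between 11.58 and 11.68. So Dll1-5 was near wild type and Dll1-3 far below it. The probe lies on chromosome 15 from 95691938 to 95691997, and another Dbx2 probe gave 3.39.

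Lmo1, a LIM-only transcriptional cofactor, was at -3.25 and -2.86 in Dll1-3 and at 0.67 and 0.55 in Dll1-5, a line difference of 3.67 ± 0.26. Its mutant signal was 7.35 and 7.91 in Dll1-3 and 11.41 and 11.42 in Dll1-5, beside 10.61 to 10.86 in wild-type RNA. Again the Dll1-3 pair was the low one. Fhl1, a four-and-a-half LIM protein gene on the X chromosome, was below wild type in both lines, at -6.05 and -6.15 in Dll1-3 and at -2.40 and -2.72 in Dll1-5. Of 15 LIM-only and LIM-homeobox genes, 3 were called higher and 0 lower, against 2.76% and 1.67% of all genes, with a median of 0.10. Lmo3 was the third at 1.02, with another probe at 0.37. The Lmo1 probe lies on chromosome 7 from 102991522 to 102991581.

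Esx1, an X-linked homeobox gene known from placenta and testis, had the lowest line difference of conventionally named genes. It stood at 3.35 and 3.70 in Dll1-3 and at -1.36 and -0.86 in Dll1-5. Mutant RNA of Dll1-5 gave no Esx1 signal well above background, so the mutant signal was at least 28.1-fold lower than in Dll1-3. That bound sets the mean of Dll1-3 against the higher of the dimmest signal above background and the probe's own signal. The probe lies on chromosome X from 130660378 to 130660437. Rhox5, another X-linked homeobox gene, went the other way: it was at 0.07 and -0.03 in Dll1-3 and at 1.67 and 1.91 in Dll1-5.

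Hoxa7, a gene of the HoxA cluster that patterns posterior body segments, was at 3.58 and 3.34 in Dll1-3 and at -0.17 and 0.14 in Dll1-5. Its mutant RNA was not above background in Dll1-5 and was at least 53.3-fold lower there than in Dll1-3. The wild-type channel differed as well: log2 signals were 8.30 and 8.63 beside Dll1-3 and 6.28 and 6.13 beside Dll1-5. The probe lies on chromosome 6 from 52359238 to 52359297. Hoxa10 was at 2.48 and 2.74 in Dll1-3 and not above background in either channel of the Dll1-5 arrays, with mutant RNA at least 8.74-fold lower. Hoxa4, at 1.41 and 0.94 in Dll1-3 and -0.66 and -0.92 in Dll1-5, had another probe at only -0.41. Hoxb3 had a line difference of -1.28 ± 0.10. These 4 of 31 Hox genes measured were called lower and 0 higher, against 1.67% and 2.76% of all genes. The median over the 31 was -0.08.

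Other patterning factors were called singly. Isl2, a LIM-homeobox factor of motor neurons, was at 1.14 and 1.11 in Dll1-3 and at -0.96 and -1.29 in Dll1-5. Pax6, a paired-box factor of dorsal progenitors, was below wild type in both lines and not above background in mutant RNA of Dll1-5, at least 2.52-fold lower than in Dll1-3; its other probes gave -0.17 and 0.03. Olig1, an oligodendrocyte lineage factor, differed by 1.19 ± 0.03. Pax5, a factor of the midbrain-hindbrain boundary, differed by 1.28. Of 27 forebrain and cortical factors 0 were called in either direction, beside 4.42% of all genes.

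Interferon-induced genes were the list with the most genes called lower in Dll1-5. Of 43 measured, 13 were called lower, 0 higher and 30 not called, against 1.67% and 2.76% of all genes, and 37 had a line difference below 0. The median was -0.62, from 0.66 over wild type in Dll1-3 and 0.14 in Dll1-5. Over the alternative settings the median ran from -1.18 to -0.55 and the number called lower from 10 to 23.

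The 2'-5'-oligoadenylate synthetase-like gene Oasl2 was at 2.85 and 2.99 in Dll1-3 and at 0.51 and -0.12 in Dll1-5, where mutant RNA was not above background and at least 9.03-fold lower. Ifit1, an antiviral RNA-binding protein gene, was at 2.20 and 2.42 in Dll1-3 and at 0.10 and 0.27 in Dll1-5. The chemokine gene Ccl5 was at 2.08 and 2.10 against 0.36 and 0.37, a line difference of -1.72, and another probe gave -1.70. In each of these the Dll1-3 pair was high and the Dll1-5 pair far lower. Wild-type RNA of Oasl2 and Ifit1 was above background on 1 of the Dll1-3 arrays and on none of the Dll1-5 arrays. Their Dll1-5 ratios therefore do not measure a likeness to wild type. Cxcl10, another interferon-induced chemokine, was above wild type in both lines, with means of 3.32 and 1.61. Isg15, a ubiquitin-like modifier, had means of 1.73 and 0.26, and the guanylate-binding protein gene Gbp3 of 1.40 and -0.33. Markers of microglia and blood were called in 0 of 18, beside 4.42% of all genes, with a median of 0.02. Their summed mutant signal was 4450 and 4310 in Dll1-3 and 3990 and 3840 in Dll1-5. Of the 18 markers, 15 were above background in mutant RNA on all 4 arrays. The exceptions were Ptprc, Aif1 and P2ry12, which define leukocytes and microglia.

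Genes of the antigen presentation machinery had a median line difference of -0.05. In each direction 1 of 27 was called, beside 2.76% higher and 1.67% lower over all genes. H2-K1, a class I histocompatibility heavy chain, was at -0.41 and -0.30 in Dll1-3 and at -2.71 and -2.63 in Dll1-5. Here the Dll1-5 pair lay below wild type. Its other probes gave -0.55 and -0.34, and genes of this family share sequence, so the size is uncertain.

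Cell cycle genes had median ratios above wild type in both lines, with the lower median in Dll1-5, and most members missed the 2-fold rule. For 40 genes of G2 and M phase the median ratio was 1.70 in Dll1-3 and 1.04 in Dll1-5. Their median line difference was -0.64, and 38 of the 40 were below 0. Of the 40, 8 were called lower, 1 higher and 31 not called, against 1.67% lower and 2.76% higher of all genes. With median centring 3 were called lower, while the median was -0.79. For 39 genes of G1 and S phase the medians were 1.35 and 0.93, with a median line difference of -0.50, 2 called lower, 1 higher and 36 not called. With the mean of all probes 0 of the 39 were called in either direction.

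Cenpe, a mitotic kinesin of the kinetochore, was at 1.89 and 1.71 in Dll1-3 and at 0.38 and 0.10 in Dll1-5, a line difference of -1.56 ± 0.05. Ccnb1, cyclin B1, was at 2.21 and 1.92 against 0.97 and 0.63, and its 2 other probes gave -1.43 and -1.27. Mad2l1, a spindle checkpoint gene, was at 2.45 and 2.30 against 1.20 and 1.13. Each Dll1-5 pair was the lower one without overlap, and both pairs were above wild type. Tyms, thymidylate synthase, had a line difference of -1.44 ± 0.05, although 1 of its other probes gave -0.03.

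Ccnb2, cyclin B2, and Cdk6, a G1 kinase, were the exceptions. Ccnb2 was at -1.85 and -1.58 in Dll1-3 and at 0.86 and 0.89 in Dll1-5, a line difference of 2.59 ± 0.12, so it lay below wild type in Dll1-3 and above it in Dll1-5. Cdk6 was at 0.46 and 0.33 against 1.97 and 1.51, with other probes at 0.18 and 0.44.

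Of 33 CDK inhibitors and p53 targets, 6 were called higher and 2 lower, against 2.76% and 1.67% of all genes, with a median of 0.09 whose sign changed with the setting. With median centring 2 were called higher and 1 lower. Cdkn2b, which encodes the CDK4 and CDK6 inhibitor p15, was at -0.06 and -0.16 in Dll1-3 and at 2.01 and 1.99 in Dll1-5, a line difference of 2.11 ± 0.04. Its neighbour Cdkn2a, which encodes p16 and p19Arf, was above wild type in both lines and differed by -0.08 ± 0.08. Rb1, the retinoblastoma protein gene, was at -1.22 and -1.05 in Dll1-3 and at 0.50 and 0.59 in Dll1-5, with another probe at 0.41. The antiproliferative gene Btg2 and the p53-induced Trp53inp1 and Bbc3 had line differences of 1.59, 1.53 and 1.38; all were below wild type in Dll1-3. Cdkn1a, which encodes the inhibitor p21, went the other way at -1.08, with means of 1.66 in Dll1-3 and 0.58 in Dll1-5.

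Sterol and fatty acid synthesis genes had a median line difference of -0.32. Of 34 measured, 3 were called lower, 0 higher and 31 not called, against 1.67% lower and 2.76% higher of all genes. The line difference was below 0 for 30. With median centring 0 were called lower, while the median was -0.59. Stard4, a sterol carrier, was at 3.07 and 2.69 in Dll1-3 and at 1.54 and 1.45 in Dll1-5. Its line difference was -1.38 ± 0.14, and that of Mvk, mevalonate kinase, was -1.10 ± 0.13. Genes of amino acid stress and the unfolded protein response had a median of -0.23, with 1 of 34 called lower and 0 higher. That gene, Chac1, which degrades glutathione and is induced by amino acid stress, was at 2.89 and 2.72 in Dll1-3 and at 0.21 and 0.10 in Dll1-5.

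Glycolysis and hypoxia genes were split, with 2 of 37 called higher and 4 lower, against 2.76% and 1.67% of all genes. Their median was -0.06. With median centring 0 were called higher, and likewise with the mean of all probes; without Dll1-3 replicate 2, 2 were called lower. Egln3, an oxygen-sensing prolyl hydroxylase induced by hypoxia, was at 2.98 and 3.08 in Dll1-3 and at 0.42 and 0.35 in Dll1-5. Ndrg1, another hypoxia-induced gene, was at 3.38 and 3.90 against 1.12 and 1.08. Pdk1, which restrains pyruvate use in mitochondria, differed by 1.28, with another probe at -0.11. Mitochondrial respiratory chain genes had 0 of 34 called in either direction, beside 4.42% of all genes.

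**Figure D4:**
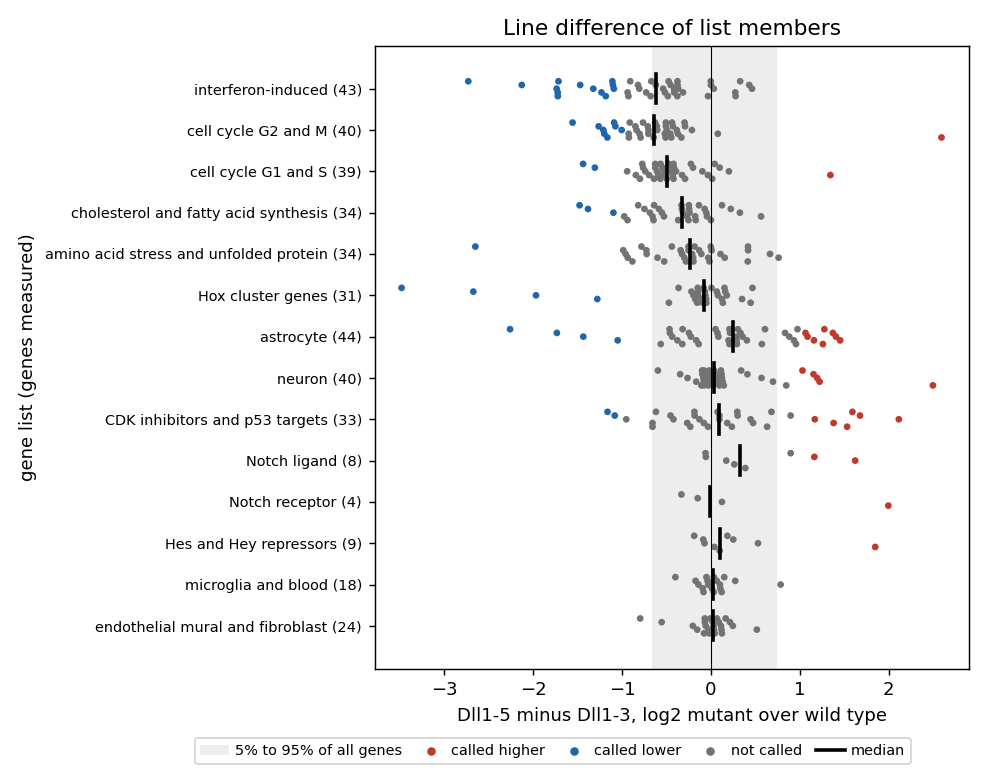
Line difference (Dll1-5 minus Dll1-3, log2) of each measured member of 14 gene lists; red and blue points are called higher and lower, grey points are not called, black bars are list medians, and the grey band holds 90% of all genes. Interferon-induced and cell cycle lists sit left of zero (medians -0.62, -0.64 and -0.50), and microglia and endothelial lists sit at zero with no called member.

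Markers of the cell types that neurospheres form showed both directions. The labelled cell type was checked on Nes, Sox2, Fabp7, Vim, Prom1, Msi1 and Pax6, which mark neural stem cells. All but Pax6 were above background in mutant RNA on all 4 arrays. Nes, the intermediate filament nestin, differed by -0.83 ± 0.01, Fabp7, a radial glial fatty acid binding protein, by 0.97 ± 0.33 and Sox2, a stem cell transcription factor, by -0.06. Of 33 genes of neural stem cells and radial glia, 1 was called higher and 4 lower, against 2.76% and 1.67% of all genes. With the mean of all probes 2 were called lower. Igf2bp3 and Igf2bp2, RNA-binding proteins of fetal tissue, were at means of 2.62 and 1.81 in Dll1-3 and 0.18 and -0.46 in Dll1-5, line differences of -2.45 ± 0.32 and -2.27 ± 0.17.

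Of 44 astrocyte markers, 8 were called higher and 4 lower in Dll1-5, against 2.76% and 1.67% of all genes, with a median of 0.25. With median centring 0 were called higher and 2 lower, with a median of 0.14, and with the mean of all probes 5 higher and 3 lower. In the setting used here the median ratio was -1.45 in Dll1-3 and -0.95 in Dll1-5, so most were below wild type in both lines. S100b, a calcium-binding protein, was at -1.94 and -1.86 in Dll1-3 and at -0.56 and -0.43 in Dll1-5. Clu, clusterin, was at 0.79 and 0.53 against 2.22 and 2.00 and lay above wild type in both lines. Cst3, Ttyh1 and Timp3 had line differences of 1.27, 1.26 and 1.16. On the other side, Aldh1a1, a retinaldehyde dehydrogenase, was at 2.17 and 1.84 in Dll1-3 and at 0.36 and 0.18 in Dll1-5. Slc1a3, the glutamate transporter GLAST, differed by -1.05, with other probes at 0.11 and 0.15. Gfap, the astrocyte filament protein, differed by 0.61 and was not called.

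Of 40 neuronal genes, 5 were called higher and 0 lower, against 2.76% and 1.67% of all genes. The median was 0.03, and its sign changed with the setting. With median centring 2 were called higher, and with the mean of all probes 3. Dpysl3, a collapsin response mediator of growing axons, was at -3.07 and -2.88 in Dll1-3 and at -0.63 and -0.34 in Dll1-5. Calb2 (calretinin), Map2 and Syn2 had line differences of 1.22, 1.19 and 1.15, and the other probes of Map2 ran from 0.08 to 0.43. Tubb3, a neuronal tubulin, differed by 0.01. Of 35 oligodendrocyte lineage genes, 2 were called higher, Olig1 and the NG2 proteoglycan gene Cspg4, and 1 lower, Vcan. These counts stand beside the same shares of all genes. The 3 other probes of Vcan lay between -0.10 and 0.09 and those of Cspg4 at 0.01 and 0.75, and with the mean of all probes 1 was called higher and 0 lower. Ependymal and choroid plexus markers had 0 of 18 called and neural crest and Schwann cell markers 0 of 19, beside 4.42% of all genes.

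Genes outside these lists included several with large differences. Prss23, a secreted serine protease gene, was at -5.83 and -5.33 in Dll1-3 and at -1.26 and -1.44 in Dll1-5, but another probe gave only 0.27. Ddt, D-dopachrome tautomerase, was at -3.76 and -3.40 against 0.27 on both Dll1-5 arrays, and Slco3a1, an organic anion transporter, at -4.39 and -3.30 against -0.19 and -0.05. In all of these the Dll1-3 pair lay far below the Dll1-5 pair. Bag3, a chaperone cofactor, had a line difference of 3.68 on its brightest probe and of -0.04 on the other. Fbln2, a fibulin of the extracellular matrix, and Fxyd6, a sodium pump regulator, were near or above wild type in Dll1-3 (0.68 and 0.70, 0.51 and 0.53) and high in Dll1-5 (3.78 and 3.56, 3.72 and 3.47). Another Fxyd6 probe gave 0.89. Mt2, a metallothionein, was at 0.75 and 0.48 against 3.18 and 2.96, and Igfbp7, which binds insulin-like growth factors, at -2.58 and -2.28 against 0.30 and 0.31.

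On the lower side, H1f0, a linker histone of differentiated and resting cells, was at 3.23 and 3.10 in Dll1-3 and at -1.28 and -0.97 in Dll1-5, a line difference of -4.29 ± 0.22, and its other probes gave -1.58 and -1.52. Gramd1a, a sterol transfer protein, was at -1.03 and -0.60 against -5.11 and -4.58, so Dll1-5 was far below wild type, and Gjc1, connexin 45, was at 0.78 and 0.60 against -3.22 and -3.04. Mnd1, a meiotic recombination factor, was at 3.45 and 3.81 in Dll1-3 and not above background in mutant RNA of Dll1-5, at least 14.3-fold lower. Ctsz, cathepsin Z, was at 3.05 and 2.82 against 0.02 and -0.01, and another probe gave -2.98. The last 2 genes were high in Dll1-3 alone, whereas Gjc1 was low in Dll1-5 alone. Gramd1a was below wild type in both lines, and much further in Dll1-5. Klhl22 and Gsdme each had a large difference on the probe used, -3.49 and -2.89, and -0.28 or values near 0 on others. Imprinted genes had 4 of 33 called higher, Kcnq1ot1 (1.68), Peg3 (1.57), Plagl1 (1.40) and Usp29 (1.13), and 2 lower, Mest (-1.36) and Igf2r (-1.11). Over all genes 2.76% were called higher and 1.67% lower. Other probes gave 0.22 and 0.83 for Peg3, 0.06 for Plagl1 and 0.17 for Usp29, and with the mean of all probes 1 imprinted gene was called higher. With median centring 0 were called lower.

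Called genes were unevenly spread over the chromosomes. Of the genes placed on chromosome 3, 5.87% were called lower and 1.72% higher, and of those on chromosome 13, 4.82% and 2.72%. On chromosome 8 0.461% were lower and 4.70% higher, and on chromosome 14 0.496% and 5.58%. Over all genes the shares were 1.67% and 2.76%. Among the 11499 brighter genes, whose ratios are less compressed, the median line difference was 0.04, against -0.32 on chromosome 13, -0.20 on chromosome 18, -0.14 on chromosome 3, 0.19 on chromosome 8, 0.17 on chromosome 14 and 0.22 on chromosome X. These medians kept their sign with the scanner software's ratios, the deposited table, an offset of 10 and median centring.

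When the brighter genes of each chromosome were cut into 10 segments of equal gene number in their RefSeq order, neighbouring genes tended to share a direction. The last 4 segments of chromosome 13 had median line differences of -0.65, -0.65, -0.64 and -0.54, while its first 3 lay between -0.06 and 0.03. In those last segments the median ratio was 0.49, 0.30, 0.55 and 0.38 in Dll1-3 and -0.07, -0.21, -0.09 and -0.15 in Dll1-5. The ninth segment of chromosome 3, from Rtca to Manba, had a median of -0.91, with 19 of 48 genes called lower and 1 higher, and the last, from Nfkb1 to Wls, of -0.79, with 2 of 49 genes above 0. The first segment of chromosome 14 was at 0.61, with 29 of 31 genes above 0, and its last at 0.53, with 31 of 32. The first segment of chromosome 18 was at 0.67, with 26 of 26 genes above 0.

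Over the 200 segments, 25 had a median of at least 0.4 in size. The wild-type RNA difference had medians between -0.06 and 0.06 in every segment, and the 2 dye-matched medians of a segment differed by at most 0.13. Of the called genes named above, Ccnb1 and Vcan are placed on chromosome 13, Cenpe and Gbp3 on chromosome 3, and Rb1 and Clu on chromosome 14. Being on such a chromosome does not place a gene in a shifted segment. On chromosome 14, for instance, the segment from Ccdc25 to Lpar6 had a median of -0.02. Dose of chromosome stretches was not measured, and its part in these differences was not tested. Genes of the Y chromosome did not differ between the lines: Eif2s3y was at means of -4.98 in Dll1-3 and -4.76 in Dll1-5, and Ddx3y at -2.55 and -2.58, both far below wild type. Xist, which silences an X chromosome in female cells, had means of -0.05 and -0.03. Of 13 sex-linked genes 0 were called, beside 4.42% of all genes.

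**Figure D5:**
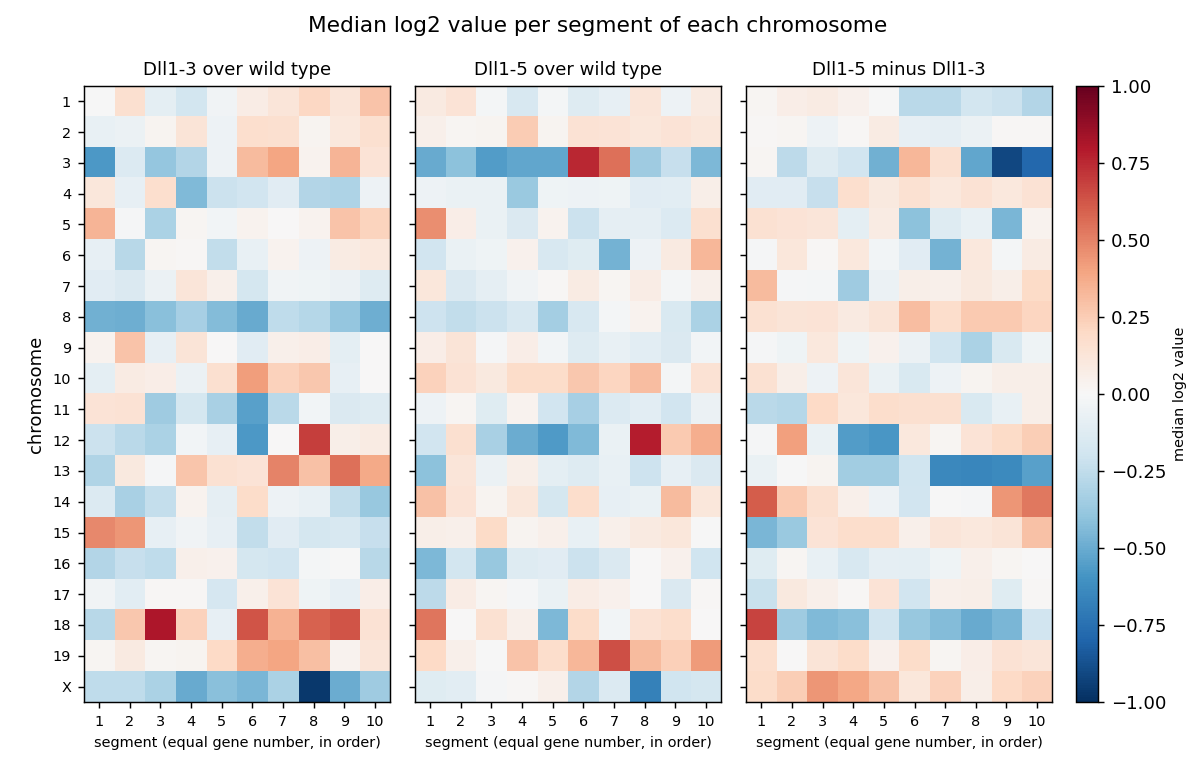
Median log2 value of the brighter genes in each of 10 segments of each chromosome (genes in RefSeq order), for Dll1-3 over wild type, Dll1-5 over wild type and their difference; blue is below and red above zero. The end of chromosome 13 (-0.65 to -0.54) and of chromosome 3 (-0.91 and -0.79) are blue in the difference, and the ends of chromosome 14 (0.61 and 0.53) are red.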

How the data were processed

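RNA of mutant and wild-type neurospheres was hybridised to 4 Agilent 2-colour arrays. The authors deposited intensity per spot as Feature Extraction 8.1.1.1 output, per the submitters' processing notes. Those files hold a log10 ratio, per the file headers, and the deposited series table is log10 wild type over mutant, a direction found by comparison with the arrays; its column medians were -0.03, 0.01, -0.02 and 0.01, and its centring is unknown. Both served as alternatives.

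With limma 3.58.1 in R 4.3.3, mean signals were corrected for local background (normexp, offset 50, which compresses dim ratios), normalised by loess (span 0.3) and turned to log2 mutant over wild type; the deposited values themselves are not log2. Control and outlier spots were left out. Of 41174 probes, 34446 were kept: in at least 1 line, both arrays had to show mutant RNA, or both wild-type RNA, well above background. The brightest probe stood for a gene. Names came from RefSeq GRCm38.p6 by accession (13664 genes), symbol (2478) or synonym (1361), else from the file (5496). A call needed 2-fold and no overlap. The calling rule was run on simulated arrays, with planted differences above 2-fold and noise drawn from the 2 arrays of each line. That noise is technical on the reading used here, so the run cannot tell how often unreplicated lines would give false calls. Median background-subtracted signals were 68.2 to 78.5 in Cy3 and 106 to 116 in Cy5, against at most 37.4 for negative controls.

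The gene lists and the naming rule (genes of the Notch pathway, the 14 highest and 14 lowest called genes, up to 5 called members per list, opposite genes and those with differing wild-type RNA) were chosen with earlier results of these data known, and Dll4, Jag1, Jag2, Cdkn2a, Neurog2, Gfap, Tubb3 and others not called were added for context. Fits with arrays as samples were made with and without the replicate number as a block. The chromosome segments and their alternatives were chosen after seeing the data. Some genes the rule names are left out. Drawings used matplotlib 3.10.9.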

Additional observations from a re-analysis of the deposited data

Results flagged for a closer look

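Some genes were at least 2-fold from wild type in opposite directions in the lines, on every array of each. Unc13b, a synaptic vesicle priming gene, was above wild type in Dll1-3 (1.59 and 1.72) and below it in Dll1-5 (-1.58 and -1.25), a line difference of -3.07; its 3 other probes ran from -0.79 to -0.03. Gstt3, a glutathione transferase gene, was below wild type in Dll1-3 (-1.21 and -1.12) and above it in Dll1-5 (1.85 and 1.79), a line difference of 2.98. Tesc, which encodes the calcium-binding protein tescalcin, was at -1.29 and -1.05 against 1.58 and 1.49, a line difference of 2.71. Itpr3, a receptor for inositol trisphosphate that releases calcium, was at -1.09 and -1.17 against 1.27 and 1.28, a line difference of 2.41. With 1 replicate per line these differences were not tested.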

How the results depend on the processing

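The number of genes called higher and lower in Dll1-5 (634 and 383) was 966 and 581 with a background offset of 10, 1431 and 885 with the scanner software's ratios, 1418 and 891 with the deposited table, 1700 and 1462 at 1.5-fold, and 71 and 39 at 4-fold. With median centring in place of loess it was 381 higher and 257 lower, and 585 of the 1017 genes were called again. It stayed within 1.5 times without background correction, with other filters on dim probes, with outlier spots kept and with the mean of all probes. Leaving out each array in turn gave 662 to 694 higher and 409 to 444 lower. The mutant RNA counts (617 and 413) were 929 and 638 with an offset of 10, 1589 and 1452 at 1.5-fold, and 76 and 41 at 4-fold. Replicate numbers mark the dye, and the pairing by number was seen in the data (r = 0.70 between deviations of same-numbered arrays, across genes). Asking for 2-fold in both dye-matched differences, as a replicate block, gave 559 and 319. The limma count with arrays as samples (4202) was 9162 with the replicate block, 2519 with an offset of 10, 2521 with the scanner software's ratios and 0 with median centring, where 219 genes had an unadjusted p under 0.05 in limma; leaving out each array gave 3175 to 4206, with the lone array of a line assumed to vary like the other line's. The cause of these shifts was not tested. No called difference of a named gene reversed. Of 130 named called genes, 82 were called again with median centring and 98 with the mean of all probes. Signal over background limits the dim genes: 25 called genes had mutant RNA of 1 line not above background on either array. Folds printed with "at least" are bounds, whereas the ratios and line differences of such genes are not.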
